A study of Mus musculus with 26 samples.

Results

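Transcripts of the oxidative phosphorylation machinery were followed in S49 cells, a mouse T-lymphoma line, during exposure to a cyclic AMP (cAMP) analog. The genes were taken from the array's platform annotation by symbol. A probe set was included when its single symbol begins with Nduf, Uqcr or Atp5, begins with Cox followed by a digit from 4 to 8, or is Cyc1 or one of Sdha, Sdhb, Sdhc and Sdhd. This gave 157 probe sets of 85 genes, out of 12393 genes on the array, and each gene was represented by its brightest probe set. By complex there were 33 genes of complex I (6 core and 27 accessory subunits), 4 of complex II, 9 of complex III, 17 of complex IV and 17 of complex V. The rule also took in 5 Ndufaf genes, which encode assembly factors and not subunits and are kept apart. Ndufa4 is grouped with complex IV, where its protein is now placed.

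The groups were Kin- cells and wild-type (WT) cells, each untreated (0 h) or exposed to 8-CPT-cAMP, a cell-permeable cAMP analog, at 100 µM for 2, 6 or 24 h. Kin- is a variant line selected from S49 that has no protein kinase A (PKA) activity, and PKA carries most known effects of cAMP. Every line and time had 3 arrays, except that the untreated groups had 4, which makes 26 arrays in all. Every untreated array is labelled 0 h, and no array holds untreated cells of a later time. Time in culture and time of exposure therefore cannot be told apart within a line. The labels do not state whether arrays of 1 group hold RNA of separate cultures, so the p-values describe the spread between arrays, which may be technical. Levels are the square root of the deposited score, read as log2 units. That reading is an assumption, and a level is comparable between arrays for 1 gene, not between genes.

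Oxidative phosphorylation is carried out by 5 protein complexes of the inner mitochondrial membrane. Complexes I (NADH dehydrogenase) and II (succinate dehydrogenase) pass electrons to coenzyme Q, complex III hands them to cytochrome c, and complex IV transfers them to oxygen. The proton gradient built on the way drives complex V, the ATP synthase. Most subunits are encoded in the nucleus and imported, and many of their promoters are known targets of the transcription factors NRF1, GABP and the ERR receptors. Dividing lymphocytes and lymphoma cells use this machinery for ATP and also to keep biosynthesis supplied with electron acceptors.

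Promoter windows of 250 bases before to 50 bases after the gene start were found in the RefSeq table (GRCm38.p6) for 70 of the 85 genes. The windows below belong to genes with a fall past the threshold at 24 h (Ndufaf4, Ndufaf5, Sdhd and Ndufa5) and with a rise (Cox7a2l and Ndufa6), so that the letters can be read beside the values that follow. Capitals mark every match to 1 of the motifs that were searched on both strands. The motifs were GCGCATGCG for NRF1, CCGGAAG for GABP and other ETS factors, TGACGTCA for a full cAMP response element (CRE), TGACG for a CRE half-site, which the full element contains, TCAAGGTCA for ERR receptors and AAGATGGCG for YY1.
Ndufaf4, chr4:24897833-24898132, plus strand: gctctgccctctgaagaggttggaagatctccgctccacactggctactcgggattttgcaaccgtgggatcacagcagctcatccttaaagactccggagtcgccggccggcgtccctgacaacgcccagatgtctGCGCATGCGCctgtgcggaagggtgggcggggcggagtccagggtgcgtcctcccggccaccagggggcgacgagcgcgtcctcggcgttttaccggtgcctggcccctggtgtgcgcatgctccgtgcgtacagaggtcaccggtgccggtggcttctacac
Ndufaf5, chr2:140170396-140170695, plus strand: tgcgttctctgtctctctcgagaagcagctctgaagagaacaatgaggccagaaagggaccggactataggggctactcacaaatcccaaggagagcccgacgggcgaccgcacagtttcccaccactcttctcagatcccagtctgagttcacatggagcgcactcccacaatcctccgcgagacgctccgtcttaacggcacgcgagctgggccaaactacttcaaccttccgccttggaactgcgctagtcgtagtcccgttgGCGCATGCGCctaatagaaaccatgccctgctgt
Sdhd, chr9:50603800-50604099, minus strand: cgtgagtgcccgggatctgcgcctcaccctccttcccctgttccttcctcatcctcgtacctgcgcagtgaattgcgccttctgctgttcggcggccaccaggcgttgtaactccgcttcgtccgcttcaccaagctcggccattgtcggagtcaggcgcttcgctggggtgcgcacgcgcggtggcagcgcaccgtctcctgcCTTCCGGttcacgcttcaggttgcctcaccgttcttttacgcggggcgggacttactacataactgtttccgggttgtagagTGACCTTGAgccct
Ndufa5, chr6:24527477-24527776, minus strand: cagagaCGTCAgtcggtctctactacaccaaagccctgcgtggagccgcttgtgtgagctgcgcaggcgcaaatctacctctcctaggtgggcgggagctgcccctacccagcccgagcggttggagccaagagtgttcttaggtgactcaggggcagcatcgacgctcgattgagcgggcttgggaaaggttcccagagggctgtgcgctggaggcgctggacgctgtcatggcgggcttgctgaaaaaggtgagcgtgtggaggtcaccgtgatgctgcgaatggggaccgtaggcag
Cox7a2l, chr17:83514284-83514583, minus strand: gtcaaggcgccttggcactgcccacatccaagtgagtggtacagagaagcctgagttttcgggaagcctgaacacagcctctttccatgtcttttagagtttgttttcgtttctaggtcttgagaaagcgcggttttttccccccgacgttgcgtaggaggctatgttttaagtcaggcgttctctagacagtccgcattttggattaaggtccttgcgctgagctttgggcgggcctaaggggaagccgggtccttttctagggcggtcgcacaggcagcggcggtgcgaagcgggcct
Ndufa6, chr15:82354242-82354541, minus strand: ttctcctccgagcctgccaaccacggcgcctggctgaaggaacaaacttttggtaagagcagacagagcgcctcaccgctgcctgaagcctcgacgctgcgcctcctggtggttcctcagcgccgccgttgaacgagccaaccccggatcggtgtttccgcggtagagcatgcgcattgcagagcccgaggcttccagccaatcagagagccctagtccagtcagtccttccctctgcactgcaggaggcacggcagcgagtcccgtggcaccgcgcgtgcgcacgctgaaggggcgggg
Counted from the gene start, the NRF1 letters begin at base −113 of Ndufaf4 and base 17 of Ndufaf5, and in both they overlap their own reverse complement by all but 1 base. In Sdhd the ETS letters begin at base −46 and the ERR letters at base 37, both on the opposite strand. Ndufa5 is shown from the first of its 2 listed starts and has a CRE half-site on the opposite strand at base −244. Counted from the second start, the same half-site is at base −80. The windows of Cox7a2l and Ndufa6 hold none of the 6 motifs in these exact letters. Sites spelled with other letters were not counted, here or in the shares below, so a window without a match may still hold such a site. The windows of Cox7a1, Ndufab1 and Atp5g1, which also fell at 24 h, were available but are not printed. Those of Cox7a1 and Ndufab1 hold none of the 6 motifs either, and that of Atp5g1 has a CRE half-site at base −104. Among the 70 windows the NRF1 letters stood in 9, or 12.9%, against 2.61% of the windows of 17492 protein-coding genes. By call at 24 h, they stood in 6 of 24 genes that fell (Atp5k, Cox6a1, Ndufaf4, Ndufaf5, Uqcr11 and Uqcrc1), in 0 of 7 that rose, and in 3 of 39 that did not pass (Atp5g2, Atp5l and Ndufa8). The ETS letters stood in 18 windows (25.7%, against 12.9% of all). These were of 7 of the 24 genes that fell, 1 of the 7 that rose and 10 of the 39 that did not pass. The ERR letters stood in 2 (2.86%, against 0.377%) and the YY1 letters in 6 (8.57%, against 2.14%). A full CRE stood in 3 windows (4.29%, against 2.54%), those of Ndufa10, Ndufb2 and Uqcrfs1, and no change of these genes passed at 24 h. At 6 h Ndufa10 had a fall that passed (−0.36, limma, adjusted p = 1.19e-05), and Ndufb2 and Uqcrfs1 did not pass. The half-site stood in 26 (37.1%, against 26.2%), 7 of genes that fell, 4 of genes that rose and 15 of genes that did not pass. A match of letters is a description of the window and does not show binding.

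The labelled cell type was checked against marker genes. Of 9 measured T-cell markers 8 had a mean above that of the median probe set (5.50), against 0 of 4 B-cell, 1 of 5 myeloid, 0 of 2 erythroid and 0 of 5 fibroblast markers. The mean level of the T-cell markers ran from 10.25 to 10.43 over the Kin- arrays, from 10.94 to 11.14 in WT cells at 24 h and from 10.43 to 10.70 in untreated WT cells. Single T-cell markers went in both directions in WT cells. At 24 h 6 of the 9 rose and 1 fell, with changes from −0.77 to 1.10, while 14.4% of all probe sets rose and 15.6% fell. At 6 h 2 rose and 2 fell (−1.51 to 1.19), against 9.52% and 10.1% of all probe sets. In untreated Kin- cells 2 of the 9 were lower and 0 higher than in untreated WT cells (−0.82 to 0.13). Over all probe sets 1.42% were lower and 1.58% higher in that comparison. Among the other lists, the B-cell gene Blnk (1.42, adjusted p = 0.000526) and the myeloid gene Itgam (2.11, adjusted p = 1.64e-06) rose in WT cells at 24 h. The fibroblast gene Pdgfrb rose in WT cells at 6 h (2.97, adjusted p = 0.001) and was higher in untreated Kin- cells than in untreated WT cells (3.12, adjusted p = 0.00229), and the myeloid gene Adgre1 rose by 0.23 in WT cells at 2 h (adjusted p = 0.0282). These 4 genes had means between 3.27 and 5.18 over all arrays, below the median probe set, and no other gene of these lists passed in these comparisons. The part of these shifts in the results was not tested. Crem, a known cAMP-induced gene, rose by 5.71 ± 0.36 log2 units in WT cells at 24 h (SE; limma, adjusted p = 1.58e-10). The arrays numbered 1 to 14 and those numbered 16 to 47 stood apart: 40.1% of all probe sets differed between these sets, and 44 of the 85 genes were lower and 10 higher in the later-numbered arrays. Every group holds arrays of both sets, and values within a set are given where they bear on a result.

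The first comparison was of WT cells at 2 h with WT cells at 0 h. Subunit transcripts changed little at this time, and the falls that passed were those of assembly factors. Of the 85 genes 3 rose, 3 fell and 79 did not pass (limma, Benjamini-Hochberg adjusted p under 0.05 over all probe sets), while 14.4% of all 22626 probe sets passed (7.11% higher and 7.25% lower). The median change of the 85 genes was 0.02 log2 units. All 3 falls were among the 5 Ndufaf genes. Ndufaf1, a factor that helps to build the membrane arm of complex I, read 9.16, 9.23 and 9.25 in WT cells at 2 h, against 9.88, 9.68, 9.68 and 9.72 in untreated WT cells. Its 2 h arrays all lay below the untreated ones, and the change was −0.52 ± 0.09 (SE; adjusted p = 0.000411). Ndufaf7, which in human cells methylates a core subunit of complex I, read 7.99, 8.22 and 8.09 at 2 h, against 8.66, 8.48, 8.45 and 8.49 at 0 h. These groups did not overlap either (−0.42 ± 0.08, adjusted p = 0.00111). For Ndufaf4 the change was −0.63 ± 0.10 (adjusted p = 8.89e-05). Both Ndufaf1 and Ndufaf7 were back near the untreated level at 6 h, at −0.02 (adjusted p = 0.921) for Ndufaf1 and −0.00 (adjusted p = 0.995) for Ndufaf7, and Ndufaf4 was lower still.

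The 3 rises at 2 h were small. Atp5d, the delta subunit of the ATP synthase, read 12.29, 12.36 and 12.50 at 2 h, against 11.95, 12.12, 11.98 and 12.05 at 0 h, a change of 0.35 ± 0.10 (adjusted p = 0.0249). Cox5b, a subunit of complex IV, rose by 0.24 (adjusted p = 0.0254) and the complex I subunit gene Ndufa1 by 0.21 (adjusted p = 0.0197). Of these genes Cox5b also passed at 6 h, at 0.22 (adjusted p = 0.03), and at 24 h the changes of all 3 were between 0.04 and 0.11 and did not pass. A second, dimmer probe set of Atp5d gave −0.40 at 24 h (adjusted p = 0.0251).

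**Figure D1:**
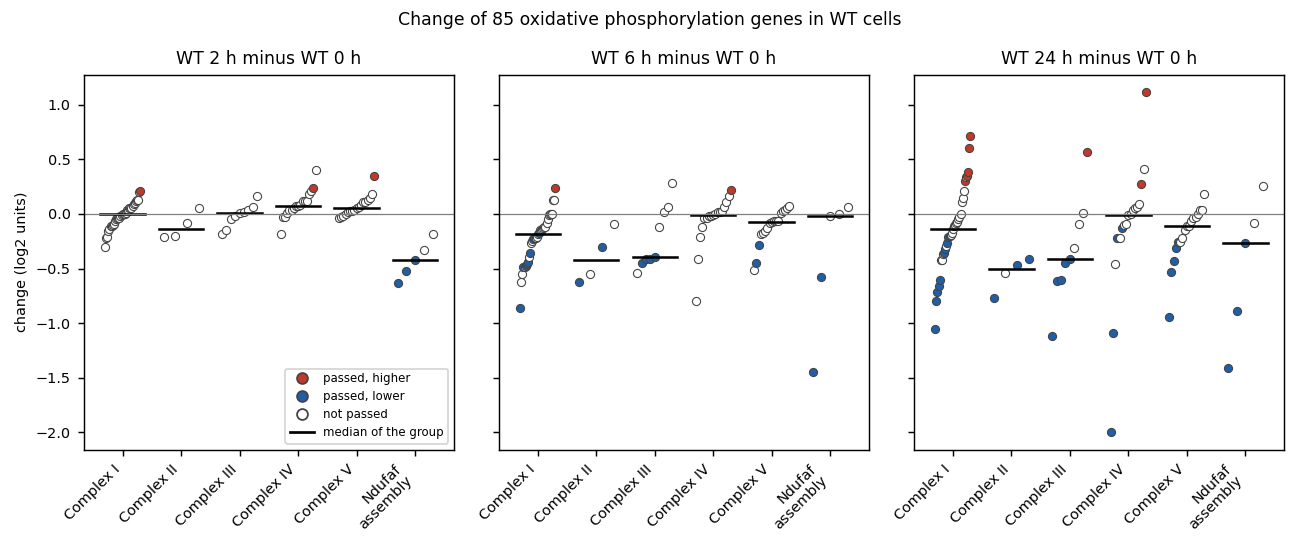
Change of each of the 85 genes in WT cells at 2, 6 and 24 h against WT cells at 0 h (vertical axis, log2 units), grouped by complex, with each gene's brightest probe set as a point, filled where the adjusted p was under 0.05, and the group's median as a bar. At 24 h the medians of complexes II and III are −0.50 and −0.41, and those of complexes IV and V are −0.01 and −0.11.

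By 6 h the falls had spread to subunits of complexes I, II and III. At this time 19 of the 85 genes fell, 2 rose and 64 did not pass, and 19.6% of all probe sets passed (9.52% higher and 10.1% lower). The median change was −0.12, against −0.03 over all probe sets. In complex I 9 of 33 genes fell and 1 rose (median −0.18), in complex II 2 of 4 fell (−0.43), in complex III 4 of 9 fell (−0.39) and in complex V 2 of 17 fell (−0.07). Complex IV had a median of −0.01, with Cox5b as its single gene past the threshold. The rise in complex I was that of Ndufb11, a subunit of the membrane arm, at 0.24 (adjusted p = 0.0439).

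Several complex I genes were lower at 6 h and near the untreated level at 24 h. Ndufb10, a membrane-arm subunit, read 12.48, 12.36, 12.23 and 12.23 in WT cells at 0 h, 12.15, 11.63 and 11.74 at 6 h, and 12.41, 12.15 and 12.33 at 24 h. Its change was −0.48 at 6 h (adjusted p = 0.00457) and −0.03 at 24 h (adjusted p = 0.989). Ndufa10 read 12.24, 12.17 and 12.12 at 6 h, against 12.54, 12.58, 12.57 and 12.46 at 0 h. No array of these groups overlapped, and the change was −0.36 ± 0.05 at 6 h (adjusted p = 1.19e-05) and −0.07 at 24 h (adjusted p = 0.372). Between these times both genes rose, Ndufb10 by 0.46 (adjusted p = 0.0128) and Ndufa10 by 0.29 (adjusted p = 0.000328).

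After a day of exposure, WT cells at 24 h were set against WT cells at 0 h. At this time 30 of the 85 genes fell, 8 rose and 47 did not pass, which is 44.7% past the threshold, against 30.0% of all probe sets (14.4% higher and 15.6% lower). The median change was −0.14, against −0.01 over all probe sets. The genes' probe sets are bright, with array medians between 11.8 and 12.4, against 5.40 to 5.53 for all probe sets, and what brightness adds to the share of calls was not tested. Changes ran from −2.00 to 1.12, and the median size was 0.26, so most genes moved by little. A lower level in every cell and fewer cells that carry the transcript cannot be told apart in such bulk RNA. By complex, 10 of 33 fell and 5 rose in complex I (median −0.14), 3 of 4 fell in complex II (−0.50), 5 of 9 fell and 1 rose in complex III (−0.41), 4 of 17 fell and 2 rose in complex IV (−0.01), and 5 of 17 fell in complex V (−0.11). Of the Ndufaf genes 3 of 5 fell (−0.27). Differences between complexes were not tested.

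**Figure D2:**
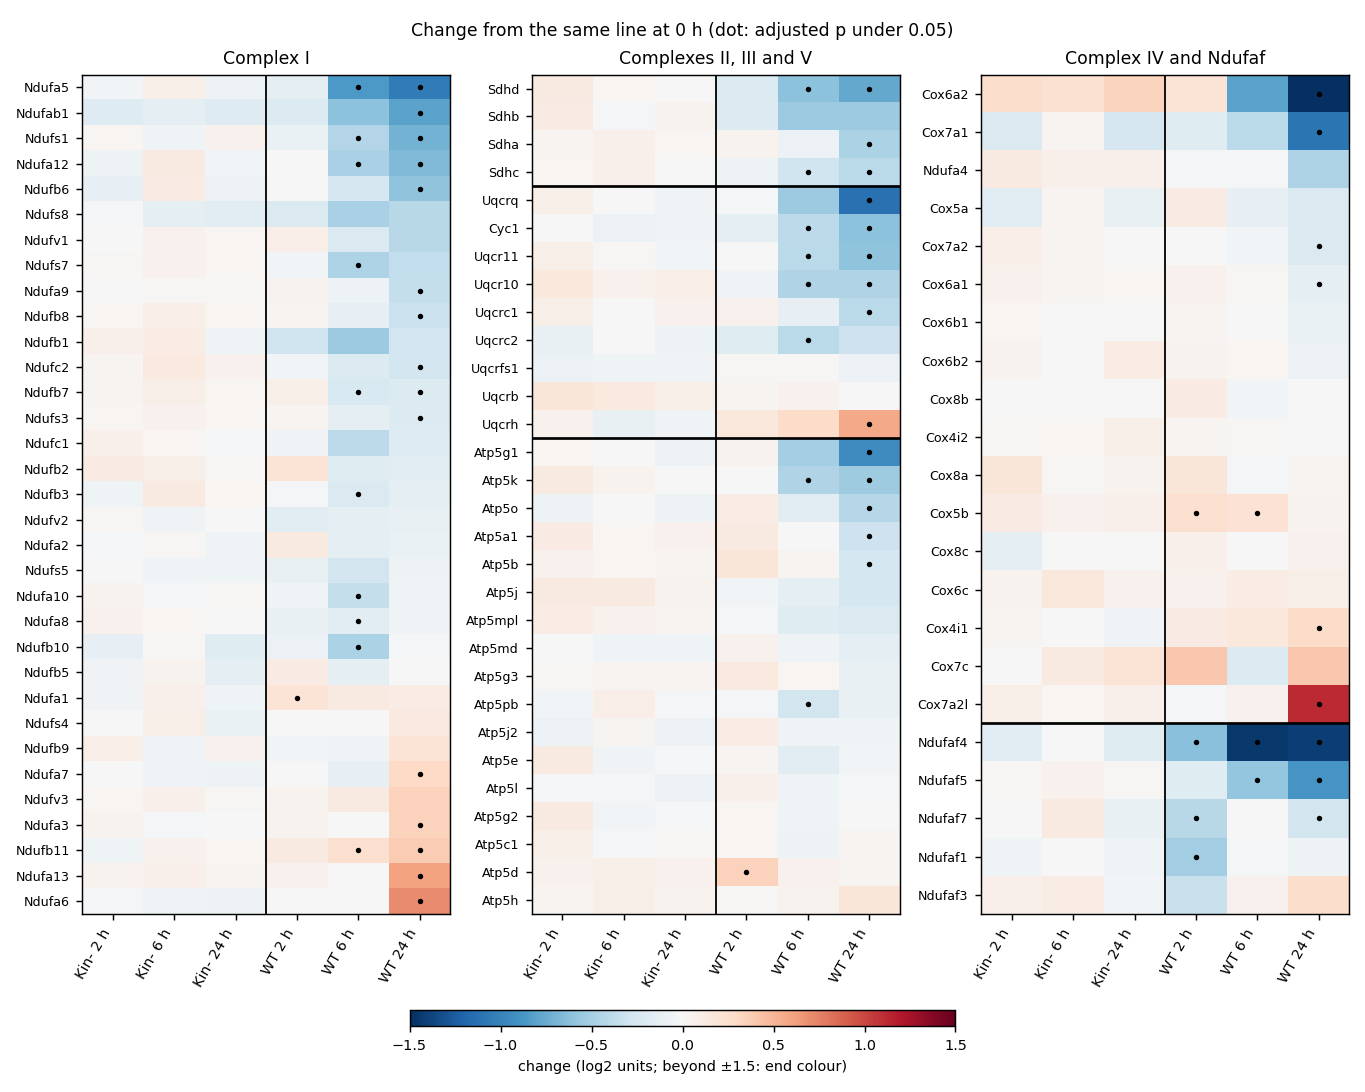
Change of each gene (rows, by complex) from 0 h of the same line at 2, 6 and 24 h in Kin- and WT cells (columns), coloured from −1.5 (blue) to 1.5 (red) log2 units, with a dot where the adjusted p was under 0.05. Dots stand only in WT columns: 6 at 2 h, 21 at 6 h and 38 at 24 h.

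Within complex I, 2 of the 6 core subunits fell at 24 h and the other 4 did not pass (median −0.40). The core subunits together, though not each of them, carry the flavin and the iron-sulfur clusters. Of the 27 accessory subunits 8 fell and 5 rose (median −0.08). Ndufs1 (Entrez Gene 227197), the largest iron-sulfur core subunit, lay between 11.61 and 11.84 in all Kin- arrays. In WT cells it read 11.76, 11.78, 11.98 and 11.78 at 0 h, 11.69, 11.81 and 11.68 at 2 h, 11.29, 11.55 and 11.30 at 6 h, and 11.12, 11.04 and 11.20 at 24 h. The 6 h and 24 h arrays were all below the untreated ones, and the change at 24 h was −0.71 ± 0.07 (adjusted p = 7.69e-08). The other core subunit that fell was Ndufs3, at −0.20 (adjusted p = 0.0359). The flavin-binding subunit gene Ndufv1 had a change of −0.42 (adjusted p = 0.0544) by its brightest probe set, while its other probe sets passed at −0.31 (adjusted p = 0.0439) and −0.25 (adjusted p = 0.00335). The genes Ndufs7 and Ndufs8, whose products lie next to the coenzyme Q site, stood at −0.37 (adjusted p = 0.0868) and −0.42 (adjusted p = 0.168).

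Ndufa5 (Entrez Gene 68202), an accessory subunit of the arm that reduces coenzyme Q, had the largest fall in complex I. Its Kin- arrays lay between 12.39 and 12.70. WT cells had levels of 12.14, 12.29, 11.97 and 12.15 at 0 h, 11.98, 12.07 and 11.95 at 2 h, 11.60, 10.98 and 11.25 at 6 h, and 11.39, 10.95 and 10.92 at 24 h. From 6 h on, every treated WT array was below every untreated one. The change at 24 h was −1.05 ± 0.12 (adjusted p = 5.92e-07), and a second probe set of the gene gave −0.82 (adjusted p = 6.21e-05). Ndufab1 (Entrez Gene 70316), the mitochondrial acyl carrier protein, read 12.05, 11.06 and 11.40 in WT cells at 24 h, against 12.63, 12.44, 12.09 and 12.05 at 0 h. Its lowest untreated and highest treated array coincided at 12.05, with arrays 1 to 14 the higher ones in both groups. The change was −0.80 ± 0.24 (adjusted p = 0.0116), and −0.58 and not past the threshold without WT 24 h array 19. Ndufa12 fell by 0.66 (adjusted p = 0.000538) and Ndufb6 fell by 0.60 (adjusted p = 0.00354) at 24 h.

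Of the 5 rises in complex I at 24 h, that of Ndufb11 had already passed at 6 h, and the other 4 passed at neither 2 h nor 6 h. Ndufa6 (Entrez Gene 67130), an accessory subunit that binds the acyl carrier protein, lay between 10.59 and 11.17 in Kin- arrays. The WT arrays read 11.24, 11.18, 10.80 and 10.96 at 0 h, 11.27, 10.95 and 10.95 at 2 h, 11.34, 10.82 and 10.98 at 6 h, and 11.67, 11.79 and 11.83 at 24 h. The 24 h arrays stood above all others, with a change of 0.71 ± 0.17 (adjusted p = 0.00193). Ndufa13, also known as GRIM-19, read 12.10, 11.98 and 12.07 at 24 h, against 11.51, 11.63, 11.20 and 11.47 at 0 h, again without overlap (0.60 ± 0.11, adjusted p = 0.000113). Ndufb11, Ndufa3 and Ndufa7 rose by 0.38 (adjusted p = 0.000805), 0.35 (adjusted p = 0.021) and 0.30 (adjusted p = 0.00925). Ndufs8, the brightest complex I gene, is among those that did not pass.

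Complex II was lower in all 4 subunits in estimate, with changes from −0.77 to −0.41 at 24 h. Sdhd (Entrez Gene 66925), a membrane anchor of the complex, lay between 11.03 and 11.49 in Kin- arrays. It read 11.54, 11.50, 11.14 and 11.20 at 0 h, 11.39, 10.93 and 11.09 at 2 h, 10.95, 10.56 and 10.68 at 6 h, and 10.85, 10.38 and 10.52 at 24 h in WT cells. Treated WT arrays of 6 h and 24 h all lay below the untreated ones, and the change at 24 h was −0.77 ± 0.15 (adjusted p = 0.000402). A second probe set gave −0.44 (adjusted p = 0.00724). The flavoprotein gene Sdha read 11.19, 11.16 and 11.30 at 24 h, against 11.65, 11.51, 11.83 and 11.75 at 0 h (−0.47 ± 0.09, adjusted p = 0.000222). The other membrane anchor gene, Sdhc, fell by 0.41 (adjusted p = 3.89e-06), but its second probe set gave −0.01 (adjusted p = 0.994). Sdhb, the iron-sulfur subunit gene and the brightest of the 4, had a change of −0.54 ± 0.23 that did not pass (adjusted p = 0.0956). Its level differed by −0.50 between the array sets, and with a term for the set all 4 genes passed.

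Complex III had genes past the threshold in both directions at 24 h. Uqcrq (Entrez Gene 22272), a small subunit of the complex, lay between 11.60 and 12.21 in Kin- arrays. Its WT levels were 12.06, 11.96, 11.52 and 11.81 at 0 h, 12.06, 11.75 and 11.64 at 2 h, 11.77, 11.03 and 11.11 at 6 h, and 11.29, 10.38 and 10.49 at 24 h. All 24 h arrays were below all untreated ones, and the change was −1.12 ± 0.22 (adjusted p = 0.000335), with −1.23 within arrays 16 to 47 and −0.72 within arrays 1 to 14. Cytochrome c1, encoded by Cyc1, fell by 0.61 (adjusted p = 0.001), and the small subunit genes Uqcr11 and Uqcr10 changed by −0.60 (adjusted p = 0.00173) and −0.45 (adjusted p = 0.00691). Uqcrc1, a core protein gene, fell by 0.41 (adjusted p = 0.00045). The Rieske iron-sulfur protein gene Uqcrfs1 and Uqcrb, the brightest gene of the complex, stood at −0.09 (adjusted p = 0.581) and 0.01 (adjusted p = 0.993) and did not pass. A second probe set of Uqcrb fell by 0.41 and passed (adjusted p = 0.029). Uqcrh, the hinge protein that contacts cytochrome c1, went the other way. It read 12.80, 12.85 and 13.01 at 24 h, against 12.41, 12.35, 12.27 and 12.22 at 0 h, with no overlap and a change of 0.57 ± 0.10 (adjusted p = 9.47e-05).

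**Figure D3:**
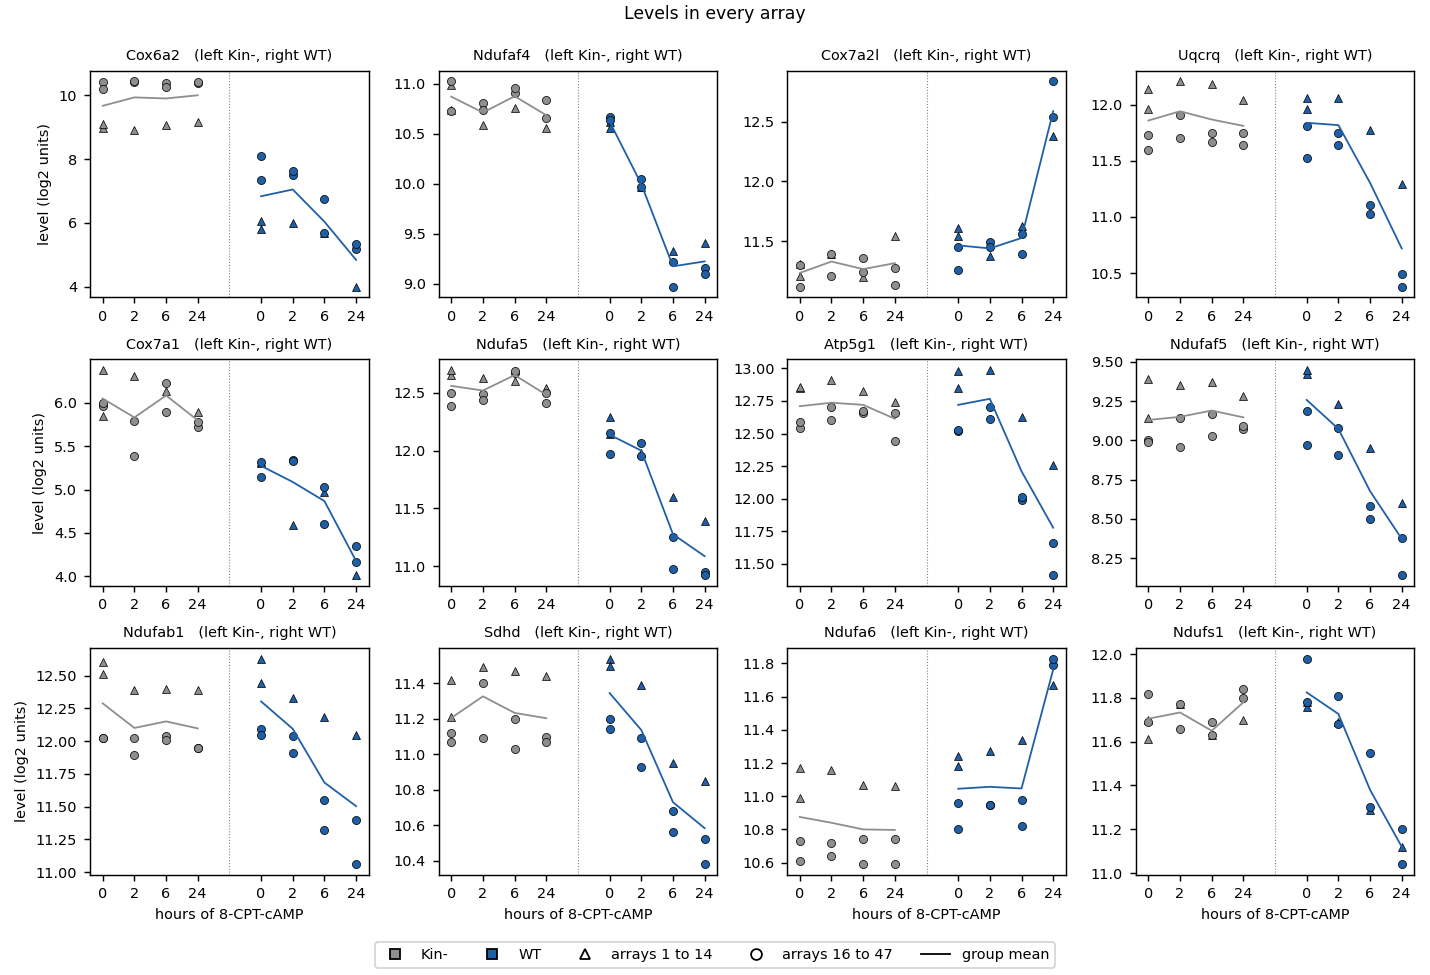
Level in every array (vertical axis, log2 units, own scale per gene) against hours of 8-CPT-cAMP for the 12 genes with the largest changes at 24 h in WT cells, with Kin- arrays in grey at the left of each panel, WT arrays in blue at the right, triangles for arrays 1 to 14, circles for arrays 16 to 47 and lines through the group means. Cox7a2l and Ndufa6 rise in WT cells between 6 and 24 h, and the other 10 genes are lower at 24 h than at 0 h.

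In complex IV most subunit genes moved little, and the largest changes that passed were those of isoforms and a binding partner. Ndufa4 had a change of −0.46 (limma, adjusted p = 0.116) that did not pass. Cox7c, with a mean of 5.76 over all arrays, had one of 0.41 that did not pass either (adjusted p = 0.229). The median of the complex also counts the dim paralogues given below. Cox7a2l (Entrez Gene 20463) encodes a relative of the Cox7a subunits that links complexes III and IV in supercomplexes. Its Kin- arrays lay between 11.12 and 11.54. Among WT arrays the levels were 11.54, 11.61, 11.26 and 11.45 at 0 h, 11.38, 11.49 and 11.45 at 2 h, 11.63, 11.39 and 11.56 at 6 h, and 12.38, 12.84 and 12.54 at 24 h. Levels up to 6 h overlapped, and those at 24 h stood above every other array. The rise was 1.12 ± 0.11 (adjusted p = 4.26e-08), and the gene's other probe sets gave 1.28 (adjusted p = 1.25e-10) and 1.23 (adjusted p = 3.79e-10).

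Cox6a2 (Entrez Gene 12862), the isoform of heart and skeletal muscle, had the largest fall of the 85 genes at 24 h. In Kin- arrays it lay between 8.92 and 10.45, higher than in any WT array. In WT cells it read 6.07, 5.82, 7.35 and 8.10 at 0 h, 6.00, 7.51 and 7.63 at 2 h, 5.68, 5.67 and 6.76 at 6 h, and 4.00, 5.18 and 5.34 at 24 h. The 24 h arrays lay below the untreated ones, but the untreated arrays spread widely. The change was −2.00 ± 0.60 (adjusted p = 0.0126), and −1.58 and no longer past the threshold without WT 0 h array 36 or without WT 24 h array 4. The array sets differed by 1.33 for this gene, and the change was −2.47 within arrays 16 to 47 and −1.95 within arrays 1 to 14. Cox6a1, its ubiquitous paralogue and the brightest gene of the complex, fell by 0.13 (adjusted p = 0.042).

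Cox7a1 (Entrez Gene 12865), another isoform of heart and skeletal muscle, was dim, with levels between 5.39 and 6.38 in Kin- arrays. WT arrays read 5.32, 5.31, 5.14 and 5.32 at 0 h, close to the median probe set, 4.59, 5.34 and 5.33 at 2 h, 4.97, 4.60 and 5.03 at 6 h and 4.01, 4.35 and 4.17 at 24 h. The 24 h arrays lay below all other WT arrays (−1.09 ± 0.19, adjusted p = 9.34e-05). Its widely expressed paralogue Cox7a2 fell by 0.22 (adjusted p = 0.0399). Cox4i1, the common form of subunit 4, rose by 0.27 (adjusted p = 0.000666), and the paralogues Cox4i2, Cox6b2, Cox8b and Cox8c were dim, with means of 3.58, 2.34, 3.63 and 4.65 over all arrays, and had no change that passed. Cox8a and Cox6b1 stood at 0.04 (adjusted p = 0.985) and −0.10 (adjusted p = 0.314).

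In complex V 5 of 17 genes fell and 0 rose at 24 h. The 29.4% that passed is close to the 30.0% of all probe sets, but the directions differ. All calls in the complex were falls, while 15.6% of all probe sets fell and 14.4% rose. Atp5g1 (Entrez Gene 11951) is 1 of the 3 genes that encode the same mature subunit c of the membrane rotor. Its Kin- arrays lay between 12.44 and 12.91. WT levels were 12.85, 12.98, 12.52 and 12.53 at 0 h, 12.99, 12.61 and 12.70 at 2 h, 12.63, 11.99 and 12.01 at 6 h, and 12.26, 11.41 and 11.66 at 24 h. The 24 h arrays were all below the untreated ones, and the change was −0.94 ± 0.18 (adjusted p = 0.000265). The other genes of subunit c, Atp5g2 and Atp5g3, stood at −0.00 (adjusted p = 0.997) and −0.11 (adjusted p = 0.452) and did not pass. Of the catalytic head, the alpha and beta subunit genes Atp5a1 and Atp5b changed by −0.31 (adjusted p = 0.000892) and −0.26 (adjusted p = 0.0139). Atp5k and Atp5o, which encode subunit e and the stalk protein OSCP, changed by −0.53 (adjusted p = 0.00443) and −0.43 (adjusted p = 0.00848). Atp5h, the brightest gene of the complex, had the highest change in it, 0.18 (adjusted p = 0.0612), which did not pass, and its second probe set rose by 0.26 and passed (adjusted p = 0.00169).

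Among the Ndufaf assembly factors, Ndufaf4 (Entrez Gene 68493), which acts early in building complex I, fell at every time. Its Kin- arrays lay between 10.56 and 11.03. In WT cells it read 10.62, 10.56, 10.67 and 10.64 at 0 h, 9.97, 10.05 and 9.97 at 2 h, 9.33, 9.22 and 8.97 at 6 h, and 9.41, 9.16 and 9.10 at 24 h. The untreated, 2 h and later arrays formed bands that did not overlap. The change was −1.45 ± 0.10 at 6 h (adjusted p = 1.35e-09) and −1.41 ± 0.10 at 24 h (adjusted p = 5.16e-10), and a second probe set gave −1.24 at 24 h (adjusted p = 0.000632). Ndufaf5 (Entrez Gene 69487), which in human cells hydroxylates a core subunit of complex I, lay between 8.96 and 9.39 in Kin- arrays. It read 9.42, 9.45, 8.97 and 9.19 at 0 h, 9.23, 8.91 and 9.08 at 2 h, 8.95, 8.50 and 8.58 at 6 h, and 8.60, 8.14 and 8.38 at 24 h in WT cells. All arrays of 6 h and 24 h were below the untreated ones, and the change was −0.58 at 6 h (adjusted p = 0.00529) and −0.89 ± 0.14 at 24 h (adjusted p = 4.32e-05). Ndufaf7 fell by 0.27 at 24 h (adjusted p = 0.0156), and Ndufaf3 had a change of 0.26 (adjusted p = 0.137).

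WT cells at 24 h were also set against WT cells at 6 h, a comparison added after the values had been seen. Of the 85 genes 7 rose, 9 fell and 69 did not pass, and 17.8% of all probe sets passed (8.64% higher and 9.16% lower). Of the rises 6 were in complex I, namely those of Ndufa6, Ndufa13, Ndufb10, Ndufa7, Ndufa3 and Ndufa10, and the other was that of Cox7a2l, at 1.06 (adjusted p = 9.54e-07). Among the falls that passed, that of Cox7a1 was the largest, at −0.69 (adjusted p = 0.0209), and the wider fall of Cox6a2 in estimate, −1.20, did not pass (adjusted p = 0.254).

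Kin- cells were compared with untreated Kin- cells at each time. No gene of the 85 passed at 2, 6 or 24 h in limma, where 0% of all probe sets passed. At an unadjusted p under 0.05 the counts were 0, 1 and 0 of 85 genes, and 489, 429 and 491 of 22626 probe sets. All of these counts are below a share of 0.05, which p-values without any change would give. The fit has no term for the array sets, so their difference adds to the spread between arrays. The lack of calls therefore does not show that small changes are absent. Median changes were 0.03, 0.03 and 0.00, and single changes ran from −0.25 to 0.33. The 1 gene under 0.05 was Cox6c at 6 h.

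The difference between the WT and Kin- responses was tested as WT minus Kin-, so a negative value means a lower change in WT cells. At 2 h 3 of the 85 genes passed, all negative, and 6.92% of all probe sets passed (3.51% positive and 3.41% negative). These were Ndufaf1, Ndufaf4 and Ndufaf7, whose changes at 2 h were −0.07, −0.16 and −0.00 in Kin- cells and −0.52, −0.63 and −0.42 in WT cells. At 6 h 9 genes passed, all negative (against 10.8% of all probe sets, 5.07% positive and 5.73% negative). This count depended on how the arrays were modelled: it was 29 with a term for the array set (16.4% of all probe sets), 22 in arrays 16 to 47 (14.1%), 20 with the array series as a random block (16.5%) and 0 in arrays 1 to 14 (0.00442%). Among the 9, the largest differences were those of Ndufaf4, at −1.46 ± 0.14 (adjusted p = 6.04e-07), and Ndufa5, at −0.95 ± 0.17 (adjusted p = 0.000763), while Cox6a2 stood at −1.03 ± 0.84 and did not pass (adjusted p = 0.661). At 24 h 25 genes passed, 18 negative and 7 positive, and 21.5% of all probe sets passed (11.3% negative and 10.2% positive). Ndufaf4 differed by −1.22 ± 0.14 (adjusted p = 1.42e-06), Uqcrq by −1.07 ± 0.31 (adjusted p = 0.0148), Cox7a2l by 1.04 ± 0.15 (adjusted p = 2.57e-05) and Ndufs1 by −0.78 ± 0.10 (adjusted p = 5.85e-06). Cox6a2 had changes of 0.33 in Kin- cells and −2.00 in WT cells, and this difference of −2.33 ± 0.84 did not pass (adjusted p = 0.0547). Both responses of a line rest on the same 4 untreated arrays.

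Untreated Kin- cells were compared with untreated WT cells. Of the 85 genes 4 were higher in Kin- cells, 4 were lower and 77 did not pass, against 3.01% of all probe sets past the threshold (1.58% higher and 1.42% lower). Cox6a2 differed most. It read 8.98, 9.09, 10.42 and 10.19 in untreated Kin- cells, against 6.07, 5.82, 7.35 and 8.10 in untreated WT cells. No arrays overlapped, and the difference was 2.83 ± 0.55 (adjusted p = 0.0046), with 2.58 in arrays 16 to 47 and 3.09 in arrays 1 to 14. Cox7a1, the other muscle isoform gene, read 6.38, 5.85, 5.96 and 6.00 in Kin- cells, against 5.32, 5.31, 5.14 and 5.32 in WT cells (0.77 ± 0.18, adjusted p = 0.0156). It lost the threshold without WT 0 h array 16 (0.73) or without Kin- 0 h array 5 (0.66). Ndufa5 was higher by 0.43 (adjusted p = 0.0427) and Ndufa9, another accessory subunit gene of complex I, by 0.33 (adjusted p = 0.0102). Of the genes that were lower, Atp5h had a difference of −0.25 (adjusted p = 0.0446), Ndufa8 of −0.21 (adjusted p = 0.0145), Cox6c of −0.20 (adjusted p = 0.0456) and Ndufa10 of −0.18 (adjusted p = 0.0288). A second probe set did not pass for Ndufa5 (0.36, limma, adjusted p = 0.17), Cox6c (−0.09, adjusted p = 0.957) or Ndufa10 (−0.19, adjusted p = 0.692, dim). That of Atp5h passed at −0.31 (adjusted p = 0.00248). All of the 4 genes higher in untreated Kin- cells fell in WT cells at 24 h, and both comparisons use the same untreated WT arrays.

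**Figure D4:**
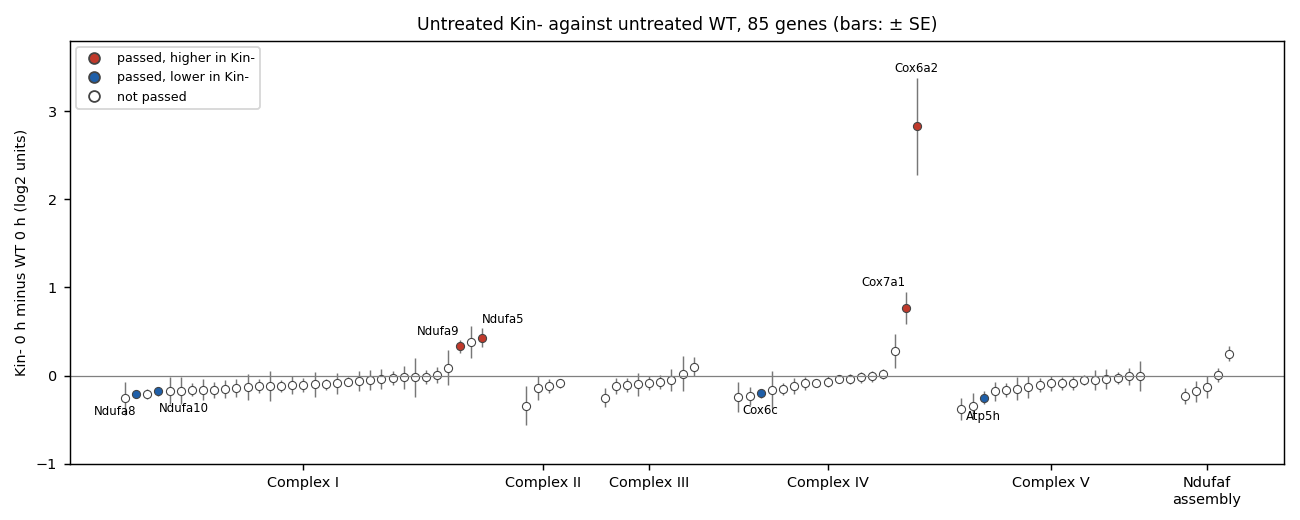
Difference of untreated Kin- cells minus untreated WT cells (vertical axis, log2 units) for each of the 85 genes, ordered within complex, with bars of ± 1 SE and filled points where the adjusted p was under 0.05. Cox6a2 stands at 2.83 and Cox7a1 at 0.77, and the other 83 genes lie between −0.38 and 0.43.

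Genes with several probe sets gave a check of the brightest one. There were 45 such genes with 72 further probe sets, and at WT 24 h 24 of these passed. Of the 24, 17 went the same way as a brightest probe set that passed, 0 went the opposite way, and 7 belonged to genes whose brightest probe set did not pass. Of 34 further probe sets of genes that were called, 17 did not pass, 5 of them dimmer than the median probe set. The other 12 belong to Atp5a1, Atp5k, Cox6a1, Cox7a2, Ndufa3, Ndufa7, Ndufab1, Sdhc and Uqcr10. Atp5a1, Atp5k and Ndufa7 each had another further probe set that passed the same way. These gave −0.31 (limma, adjusted p = 0.000595), −0.31 (adjusted p = 0.00887) and 0.23 (adjusted p = 0.0227). For Cox6a1, Cox7a2, Ndufa3, Ndufab1, Sdhc and Uqcr10 the call rests on the brightest probe set. The call of Uqcrq does so too, as its further probe sets were all dimmer than the median probe set and did not pass. The 7 probe sets that passed where the brightest did not are those of Atp5d, Atp5h, Atp5pb, Ndufv1, Uqcrb and Uqcrc2.

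The array sets bear on the counts in WT cells. With a term for the set, 37 genes fell and 11 rose at 24 h, which is 56.5% of the 85 genes, against 34.0% of all probe sets in the same fit. In arrays 16 to 47 alone 33 fell and 12 rose (52.9%, against 31.8%). In arrays 1 to 14 alone, with a single treated array, 9 fell and 3 rose (14.1%, the same share as that of all probe sets). With the array series as a random block 36 fell and 11 rose, against 34.6% of all probe sets. The median of complex II at 24 h was −0.47 with the set term, −0.51 for arrays 16 to 47 and −0.41 for arrays 1 to 14. In the same order, that of complex III was −0.40, −0.44 and −0.21, and that of complex IV, close to 0, was −0.02, 0.01 and −0.05. At 6 h 28 fell and 4 rose with the term (24.1% of all probe sets) and also with the series as a block (24.7%), and 26 fell and 3 rose in arrays 16 to 47 (21.3%). In arrays 1 to 14 none of the 85 passed at 6 h in limma (3.18% of all probe sets), with 19 at an unadjusted p under 0.05.

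Genes that build, feed and maintain the machinery were listed separately. Of 29 measured genes for assembly factors outside the Ndufaf family, 7 fell and 2 rose at 2 h, 16 fell and 3 rose at 6 h and 13 fell and 2 rose at 24 h. Over all probe sets 7.25%, 10.1% and 15.6% were lower and 7.11%, 9.52% and 14.4% higher at these times. At 24 h Ecsit and Acad9, which act with Ndufaf1 on complex I, changed by −1.21 (adjusted p = 3e-05) and −0.96 (adjusted p = 7.9e-07), while Uqcc3, a complex III factor, and Surf1, a complex IV factor, rose by 1.04 (adjusted p = 2.13e-05) and 0.82 (adjusted p = 0.00107). Lrpprc, which stabilises mitochondrial messenger RNA, fell by 0.97 (adjusted p = 1.13e-06). Of 25 genes of protein import and metabolite carriers 17 fell at 24 h and 8 did not pass, with a median change of −0.56, led by the import chaperone genes Timm8a1 (−1.96, adjusted p = 2.9e-08) and Timm9 (−1.72, adjusted p = 0.000184) and the outer membrane channel gene Tomm40 (−1.69, adjusted p = 2.4e-06).

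Of 22 genes of mitochondrial biogenesis and DNA maintenance 9 fell and 3 rose at 24 h, and here and for the next lists the share over all probe sets was 15.6% lower and 14.4% higher. The coactivator genes Pprc1 and Ppargc1b changed by −1.87 (adjusted p = 4.19e-07) and −1.20 (adjusted p = 0.000595), and Tfb1m, which modifies mitochondrial ribosomal RNA, by −1.42 (adjusted p = 2.34e-05). The rises were those of Tk2 (1.13, adjusted p = 3.16e-05) and Dguok (0.88, adjusted p = 1.32e-05), kinases that salvage deoxynucleosides in mitochondria, and of Polg, the mitochondrial DNA polymerase (0.53, adjusted p = 0.000118). Of 17 genes of electron carriers and coenzyme Q synthesis 9 fell and 4 rose, with Coq7 at −1.07 (adjusted p = 0.00028) and the kinase-like gene Coq8a at 1.68 (adjusted p = 1.17e-06). Dhodh, a pyrimidine enzyme that feeds electrons to coenzyme Q, fell by 1.05 (adjusted p = 2.4e-05). Of 21 genes of the citric acid cycle and pyruvate dehydrogenase 9 fell and 1 rose, with Suclg2, a subunit of succinyl-CoA synthetase, at −1.77 (adjusted p = 8.99e-10), Idh3a, of isocitrate dehydrogenase, at −1.36 (adjusted p = 2.63e-10) and Pdha1, of pyruvate dehydrogenase, at 0.79 (adjusted p = 8.94e-05). Median changes at 24 h were −0.10 for the assembly factors, −0.37 for biogenesis, −0.21 for carriers and coenzyme Q and −0.19 for the citric acid cycle. In Kin- cells no gene of these 5 lists passed at any time in limma, with between 0 and 1 gene of a list under an unadjusted p of 0.05.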

How the data were processed

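RNA of 26 samples was measured on 1 array each. The authors deposited 1 table of scores for 22626 probe sets; how these scores were made is not given in the sources used here. The deposited scores span 0.375 to 267 (column medians 29.1 to 30.6), and their square root was read as log2 intensity (power 0.5; 0.75 was an alternative). Symbols come from the platform annotation: 20380 probe sets have 1 symbol, 691 several and 1555 none, and 8 probe sets with several symbols were left out of the 85 genes. A model with 1 mean per group and no covariate was fitted to all probe sets in R 4.3.3 by limma 3.58.1 (functions lmFit, contrasts.fit and eBayes), and p-values were adjusted over all 22626 by the Benjamini-Hochberg method, with 0.05 as the threshold; the procedure was tested on simulated data. The number of arrays limits the precision. The genes and lists were chosen with earlier results of these data known. Named genes are those that passed in WT cells, with array values for the 12 largest changes at 24 h, the brightest and most changed gene of each complex, isoform pairs, up to 10 of each further comparison, and up to 3 per direction of each other list. Values in every array were added for a few more genes after they had been seen. Alternatives were the power, quantile normalization, a filter on dim probe sets, the mean of a gene's probe sets, the array set, the array series as a block, and each array left out. Promoters come from RefSeq (GRCm38.p6), and the NRF1 and YY1 motifs were shortened by 1 letter after longer forms had been searched.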

Additional observations from a re-analysis of the deposited data

Results flagged for a closer look

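In groups of 4 arrays, 2 values of the 12 genes with array values stood far from the other 3 arrays, both in untreated WT array 16. Cox7a1 was 5.14 there, with a gap to the next array of 0.92 of the group's range, and Ndufs1 was 11.98, with 0.90. Chance gives such a gap in about 1 in 20 groups.

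For 37 gene and time pairs the test of the difference between the WT and Kin- responses passed (limma, WT minus Kin-, log2 units). At 2 h the differences were −0.45 for Ndufaf1, −0.47 for Ndufaf4 and −0.42 for Ndufaf7. At 6 h they were −0.34 for Ndufa10, −0.63 for Ndufa12, −0.95 for Ndufa5, −1.46 for Ndufaf4, −0.65 for Ndufaf5, −0.35 for Ndufb3, −0.32 for Ndufb7, −0.39 for Ndufs1 and −0.38 for Sdhc. At 24 h the positive differences were 0.31 for Cox4i1, 1.04 for Cox7a2l, 0.55 for Ndufa13, 0.79 for Ndufa6, 0.38 for Ndufa7, 0.35 for Ndufb11 and 0.63 for Uqcrh. In complex I the negative differences at 24 h were −0.62 for Ndufa12, −0.97 for Ndufa5, −0.38 for Ndufa9, −0.35 for Ndufb8 and −0.78 for Ndufs1, with −1.22 for Ndufaf4 and −0.90 for Ndufaf5 among its assembly factors. In complexes II and III they were −0.50 for Sdha, −0.41 for Sdhc, −0.77 for Sdhd, −0.54 for Cyc1, −0.55 for Uqcr10, −0.56 for Uqcr11, −0.49 for Uqcrc1 and −1.07 for Uqcrq. In complexes IV and V they were −0.84 for Cox7a1, −0.37 for Atp5a1 and −0.85 for Atp5g1.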

How the results depend on the processing

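Counts of the 85 genes past the threshold depended most on the array sets. In arrays 1 to 14 alone WT cells gave 0, 0 and 12 at 2, 6 and 24 h, with 0 for untreated Kin- against WT, 0, 0 and 1 for the difference of responses at 2, 6 and 24 h, and 0 for WT 24 h against 6 h, in fits with a single treated array a group that is assumed to vary like the other groups. With a set term they were 32 for WT at 6 h, 13 for Kin- against WT, 29 and 39 for the differences at 6 and 24 h and 29 for WT 24 h against 6 h. With the array series as a random block they were 32, 20 and 28 for WT at 6 h, the difference at 6 h and WT 24 h against 6 h. Arrays 16 to 47 gave 22, and the mean of a gene's probe sets 14, for the difference at 6 h. Without dim probe sets Kin- against WT gave 4 of 80 genes. Power 0.75 and quantile normalization moved no count by over 1.5 times. No setting reversed the change of the 12 genes with array values at WT 24 h, or of Cox6a2 and Cox7a1 between the untreated lines. Medians of the 85 genes near 0 did change sign. That of WT at 2 h, 0.02, was −0.03 in arrays 1 to 14 and −0.02 after quantile normalization, and that of WT 24 h against 6 h, −0.02, was 0.03 in arrays 16 to 47 and after quantile normalization. Leaving out 1 array gave −0.03 to 0.06 for Kin- at 2 h, −0.06 to 0.03 for Kin- at 24 h and −0.07 to 0.02 for WT 24 h against 6 h. Leaving out 1 array gave 3 to 8 genes for WT at 2 h (3 without array 37), 8 to 27 at 6 h (12, 8 and 13 without arrays 1, 18 and 38), 27 to 43 at 24 h, 0 to 0 at each Kin- time, 3 to 8 for Kin- against WT, 0 to 3, 5 to 16 and 16 to 30 for the differences, and 9 to 17 for WT 24 h against 6 h. The groups share no replicate numbers, so samples were not paired by number, and the block by array series above is the blocked fit that was run.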

Other observations

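1 probe set on the array reads ND5, a complex I subunit encoded in mitochondrial DNA, which the symbol rule leaves out. Its mean over all arrays was 13.73. In WT cells it averaged 13.60 ± 0.44 (SD, n = 4) at 0 h, and 14.00 ± 0.35, 14.00 ± 0.38 and 14.16 ± 0.22 (SD, n = 3 each) at 2, 6 and 24 h. The change at 24 h was 0.11 ± 0.24 (SE; limma, adjusted p = 1) in Kin- cells and 0.57 ± 0.24 (SE) in WT cells and did not pass (limma, adjusted p = 0.0791). The genes Nrf1 and Tfam, a transcription factor of respiratory genes and the packaging factor of mitochondrial DNA, changed by −0.93 (adjusted p = 4.76e-05) and −1.11 (adjusted p = 2.32e-08) in WT cells at 24 h. At 2 h Nrf1 had risen by 0.54 (adjusted p = 0.0179), while Tfam had fallen by 0.39 (adjusted p = 0.0118), and at 6 h Nrf1 stood at 0.24 (adjusted p = 0.382). Cycs, the gene of cytochrome c, fell by 0.86 at 24 h (adjusted p = 8.51e-06).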
